A study of Homo sapiens with 12 samples.

Results

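The baseline map of histone H3 lysine 27 acetylation (H3K27ac) in control MDA-MB-231 cells rests on the 3 Control libraries of a series with 12 labelled libraries, of which 9 have a list of broad peaks used here. MDA-MB-231 is an established human breast cancer cell line of triple-negative, mesenchymal-like character. All 3 libraries came from cells infected with the EV-control lentivirus, in place of a virus with an shRNA against CDK19 or CDK8, and processed 96 h after infection. CDK8 and CDK19 are the kinases of the Mediator complex. Chromatin was native, that is not fixed, and each ChIP used 250000 to 500000 cells. The labels do not say whether the libraries came from separate cultures, so the spread between them may be technical. Peaks of the 3 lists on chromosomes 1 to 22 that overlapped by at least 1 bp were merged into 106801 regions. Of these, 41529 had a peak in each of the 3 lists and are called shared regions here; all 9 lists of the series merged into 117336 regions. Breadth is the length of a region that peaks cover, given for each list or as the mean of the 3 lists. Coordinates are hg19, counted from 1. An hg19 gene annotation and genome were not used here, so regions are given by position, without gene names or sequences, and marker genes of the cell line were not checked.

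H3K27ac is set by the acetyltransferases p300 and CBP and marks nucleosomes at active promoters and enhancers. Most marked sites are short, covering a few nucleosomes, while at some genes neighbouring enhancers and the gene body carry the mark together over a long, nearly unbroken domain. Such broad domains are known for lying near genes that are highly active in a given cell type, whereas repetitive and silent heterochromatin lacks the mark.

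The Control lists differed in length and in the −log10 p of their peaks. Replicate 1 had 63776 peaks on chromosomes 1 to 22, replicate 2 had 85366 and replicate 3 had 82728. Replicate 1 thus had the shortest list. Its median −log10 p as given by the authors' caller was 4.94, against 3.18 in replicate 2 and 3.39 in replicate 3. Depth and the number of weak peaks called can change such a median, so it is not read as a difference in strength. The covered length was 256 Mb in replicate 1, 305 Mb in replicate 2 and 308 Mb in replicate 3. Replicate 3 had 134 peaks of at least 50 kb, against 39 in replicate 1 and 51 in replicate 2. Read depth is unknown, and no counting interval was computed. No pair of these lists had a peak with the same start and end (0 in each pair).

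The shared regions were 38.9% of the merged regions but held most of the acetylated length. They took 93.2% of the covered length of replicate 1, 86.6% of that of replicate 2 and 84.7% of that of replicate 3, a mean of 88.2% ± 4.46 (SD, n = 3). Another 16002 regions (14.98%) were held by 2 lists and 49270 (46.1%) by a single list. Single-list regions were short, with a median breadth of 809 bp, against 1362 bp for regions of 2 lists and 4132 bp for shared regions. Replicate 3 alone held 23154 regions and replicate 2 alone 19379, while replicate 1 alone held 6737. The regions of a single list thus came mostly from the 2 longer lists.

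Whether a peak was shared went with its strength, and with its width, within its own list. In the strongest decile of each list by −log10 p, 99.98% of the peaks of replicates 1 and 2 and all 8272 peaks of replicate 3 lay in a shared region. In the weakest decile the share was 45.3% in replicate 1, 15.95% in replicate 2 and 17.4% in replicate 3. The share was 97.8% in the seventh decile of replicate 1, against 84.2% in replicate 2 and 87.0% in replicate 3. Width rose along the same scale. The median peak was 762 bp wide in the weakest decile of replicate 1 and 7831 bp in its strongest decile, with 754 and 8009 bp in replicate 2 and 740 and 7664 bp in replicate 3. Strength and width come from one peak caller on one library and are not independent of each other. A wider peak also overlaps peaks of the other lists more easily, so strength cannot be told apart from width here. Peaks of the shortest list have longer lists to meet, so the higher share of replicate 1 is not read as a trait of that library.

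**Figure D1:**
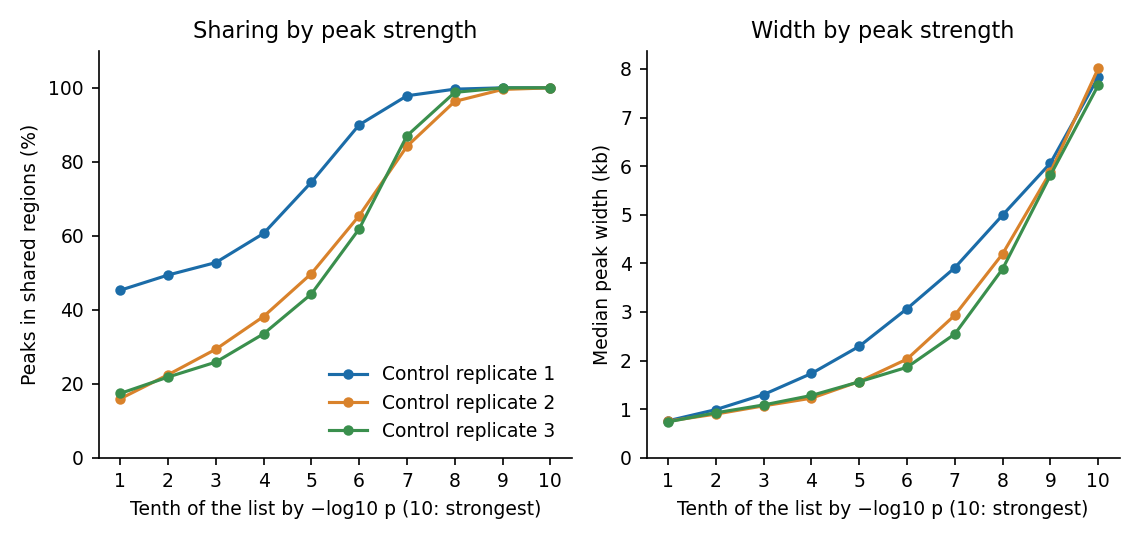
Share of peaks that lie in a shared region (left, percent) and median peak width (right, kb) by decile (10% of the peaks) of the −log10 p of each Control list, with 1 line per replicate. Sharing rises from 45.3%, 15.95% and 17.4% in the weakest decile to 99.98% or more in the strongest, and the line of replicate 1 lies above the others over the first 8 deciles.

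Shared regions had a median breadth of 4132 bp, with quartiles of 2445 and 7196 bp. In the single lists the median over the same regions was 4016 bp in replicate 1, 4377 bp in replicate 2 and 3940 bp in replicate 3, a mean of 4111 ± 233 bp (SD, n = 3). The distribution had a long upper tail. Of the shared regions 6115 (14.7%) were at least 10 kb broad, 1546 (3.72%) at least 20 kb, 150 (0.361%) at least 50 kb and 13 at least 100 kb. The 10 regions just above the 50 kb limit measured 50014 to 50854 bp and the 10 just below it 48455 to 49766 bp, so that this limit splits a continuous distribution. The broadest 10% of the shared regions (4153 regions, each of 12438 bp or more) carried 35.2% of the covered length, and the broadest 1% (415 regions) carried 8.32%. Within shared regions, peaks covered 8.55% of the spanned length of chromosomes 1 to 22 in replicate 1, 9.46% in replicate 2 and 9.35% in replicate 3, and 6.57% was covered by all 3 lists at the same base.

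**Figure D2:**
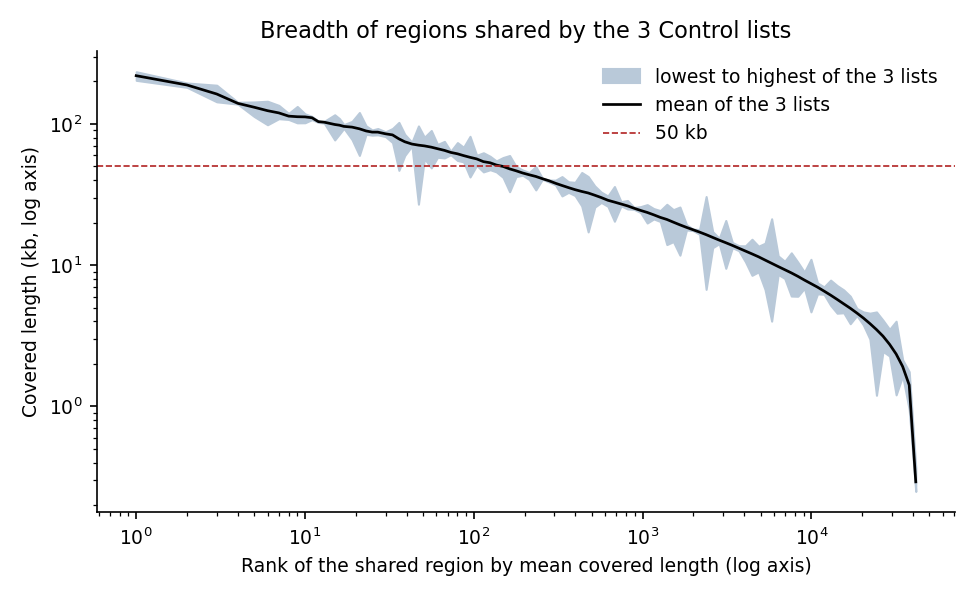
Covered length (kb, log axis) of shared regions against their rank by mean covered length (log axis), at ranks evenly spaced on the log axis. The line is the mean of the 3 Control lists and the band runs from the lowest to the highest list; 150 regions lie at or above the dashed line at 50 kb.

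Breadth varied less between lists, relative to its mean, in broad regions than in narrow ones. The median coefficient of variation over the 3 lists was 46.1% for regions under 2 kb and 25.4% for regions of 2 to 5 kb. It was 15.4% for regions of 10 to 20 kb and 11.3% for regions of at least 50 kb. In base pairs, edges differed more in broad regions. The left edge of a region differed between a pair of lists by a median of 392 bp in regions under 2 kb and of 849 bp in regions of at least 50 kb, and the right edge by 395 and 868 bp. All 3 lists together covered a median of 26.3% of the merged span in regions under 2 kb and 73.6% in regions of at least 50 kb. Across the 41529 regions Spearman's rho of breadth was 0.859 between replicates 1 and 2, 0.789 between replicates 1 and 3 and 0.822 between replicates 2 and 3; regions of one library share its depth and calling. In 898 shared regions (2.16%) no base was covered by all 3 lists.

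Most of the broadest regions were split into several peaks in replicates 1 and 2 and less so in replicate 3. In the 150 regions of at least 50 kb, replicate 1 had a mean of 5.71 peaks per region, replicate 2 had 4.99 and replicate 3 had 2.31. Among the 30 broadest, 15 were a single peak in replicate 3, 2 in replicate 2 and 1 in replicate 1. A single peak in each list was found for 96.0% of the regions under 2 kb but for 2% of those of at least 50 kb. Of these 150 regions, 106 were broadest in replicate 3 and 109 narrowest in replicate 1. At least 50 kb was covered in every list in 97 of them, and 61 other regions reached 50 kb in some list but not in the mean. The count of 150 rests in part on replicate 3, since without it 66 regions of at least 50 kb were held by both other lists.

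By the −log10 p of their best peak, the broadest regions were strong, but few of them were among the strongest. That peak is the highest of several in many broad regions, and how the caller scores a long peak was not examined. The best peak of the regions of at least 50 kb lay at the median percentile 96.1 of the −log10 p of replicate 1, 95.3 of replicate 2 and 94.3 of replicate 3. Among the 150 shared regions with the highest mean percentile of their best peak, 2 were among the 150 broadest. The 150 broadest made up 0.361% of all shared regions. Those 150 strongest regions ranged from 3581 to 89124 bp, with a median of 13581 bp. Of them, 38 were at least 20 kb broad, against 3.72% of all shared regions. Both counts were higher than these shares of 150 regions would give. Across all shared regions Spearman's rho between breadth and the −log10 p of the best peak was 0.744, 0.670 and 0.671 in replicates 1, 2 and 3.

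The broadest shared region lay on chromosome 8 from 118899584 to 119134771. Peaks covered 204 kb of it in replicate 1, 221 kb in replicate 2 and 234 kb in replicate 3, a mean of 219.6 ± 15.4 kb (SD, n = 3). It was split into 16 peaks in replicate 1 and 9 in replicate 2 but was 1 peak in replicate 3. On its left the next shared region was 836 bp away, and joining peaks within 1000 bp gave a domain of 303 kb. The longest stretch covered by all 3 lists was 31.6 kb, and without replicate 3 the broadest remaining piece measured 71.1 kb. The covered length thus differed little between the lists, while only the call of replicate 3 was unbroken.

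The region next in breadth lay on chromosome 17 from 62515311 to 62713594, with 182, 190 and 195 kb covered in replicates 1, 2 and 3 (189 ± 6.66 kb, SD, n = 3). Leaving out any 1 list left it between 181 and 192 kb. All 3 lists together covered 88.2% of its span. The one after it was again on chromosome 8, from 128804590 to 128994657, with 143, 157 and 188 kb (163 ± 22.8 kb, SD, n = 3). It held 15 peaks in replicate 1, 17 in replicate 2 and 2 in replicate 3, and its broadest piece measured 64.9 kb without replicate 3 and 100.2 kb without replicate 2. Its best peak was among the strongest of each list, at percentiles 99.4, 97.7 and 98.2.

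On chromosome 12 a region from 66210809 to 66358337 was covered over 139, 138 and 142 kb in replicates 1, 2 and 3 (140 ± 2.16 kb, SD, n = 3). Its best peaks lay at percentiles 78.4, 87.0 and 80.0 of their lists, the lowest of the 12 regions given in full in replicates 1 and 3. Its edges differed between lists by at most 566 bp on the left and 393 bp on the right. On chromosome 2 a region from 36653300 to 36801472 had 113, 138 and 143 kb (131 ± 16.1 kb, SD, n = 3), lowest in replicate 1. Leaving out replicate 1, 2 or 3 left pieces of 78.0, 76.5 and 84.6 kb, so it shrank by over 1.5 times whichever list was left out.

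On chromosome 20 the region from 30246766 to 30392854 had 98.7 kb in replicate 1, 129 kb in replicate 2 and 145 kb in replicate 3 (124 ± 23.4 kb, SD, n = 3). This is the largest SD among the 12 regions, and the right edge alone differed by 15.7 kb. Without replicate 3 it measured 76.1 kb. On chromosome 15 the region from 67355911 to 67491386 was covered over 115, 109 and 135 kb in replicates 1, 2 and 3 (120 ± 13.9 kb, SD, n = 3). Its left edge lay within 90 bp in the 3 lists, and 91.4 kb of it was one stretch covered by all 3.

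On chromosome 6 the region from 56522792 to 56642936 had 108, 119 and 114 kb in replicates 1, 2 and 3 (114 ± 5.63 kb, SD, n = 3). It was 1 peak in replicate 2, without which the broadest piece was 69.5 kb. On chromosome 9 the region from 37922839 to 38055809 had 102, 103 and 133 kb (113 ± 17.7 kb, SD, n = 3), high in replicate 3 alone, where it was 1 peak. Without replicate 3 its broadest piece was 59.0 kb. On chromosome 10 the region from 101652736 to 101772641 had 102, 118 and 117 kb (112 ± 8.89 kb, SD, n = 3), and no left-out list moved it below 88.9 kb.

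The remaining regions given in full differed little between lists. On chromosome 11 the region from 121956713 to 122075305 had 107, 111 and 113 kb (111 ± 2.94 kb, SD, n = 3). It stood apart from other shared regions, with 429 kb to the nearest on its left and 375 kb on its right. Regions held by fewer lists are not considered in these distances. On chromosome 5 the region from 33758549 to 33863925 had 104.6, 102.6 and 104.4 kb (104 ± 1.10 kb, SD, n = 3). It was 1 peak in each list, and 102.6 kb (97.3% of its span) was covered by all 3 lists without a break, the longest such stretch of the map. By this stricter measure the next were a region on chromosome 7 (130555143 to 130657261, 95.2 kb unbroken) and the region on chromosome 15 named above.

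**Figure D3:**
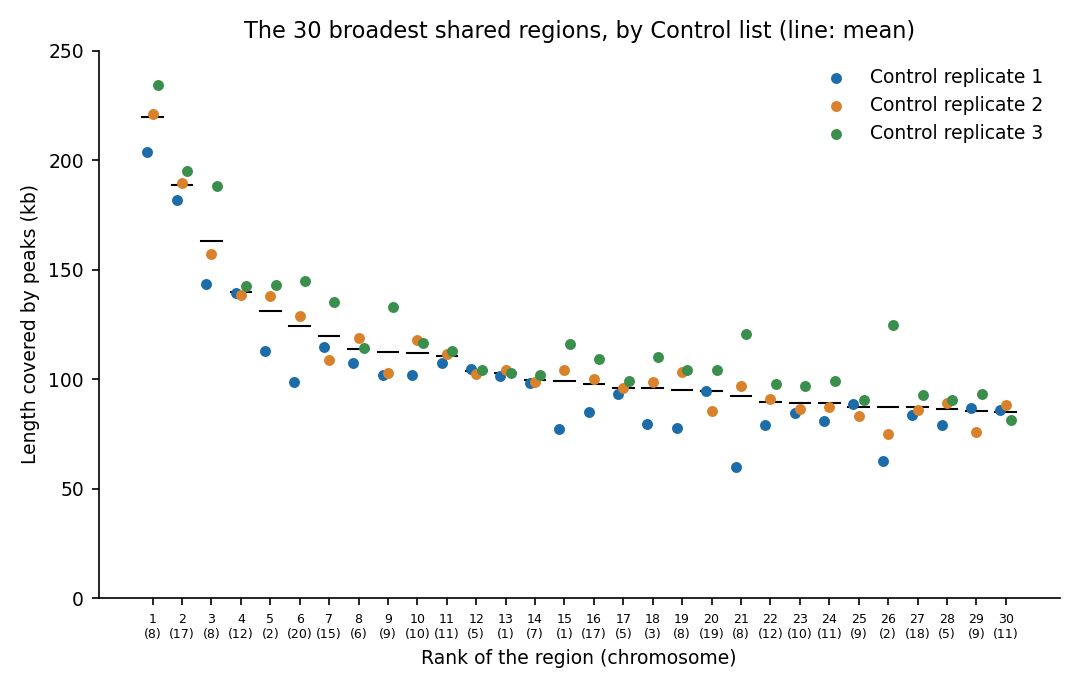
Length covered by peaks (kb) in each of the 3 Control lists for the 30 broadest shared regions, ordered by the mean (black line), with the chromosome under each rank. Means run from 219.6 to 85.2 kb, and replicate 3 (green) is the highest of the 3 points in 25 regions.

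The regions ranked 13 to 30 had means between 103 and 85.2 kb. Over all 30, the coefficient of variation ran from 1.06% to 37.6% and was under 10% in 16. Replicate 1 was the narrowest in 23 of the 30 and replicate 3 the broadest in 25. The share of the merged span covered by all 3 lists ran from 43.5% to 97.3%, with a median of 80.7%. Chromosome 8 held 4 of the 30, chromosomes 5, 9 and 11 held 3 each, and chromosomes 4, 13, 14, 16, 21 and 22 held none (0). On chromosome 8 the regions from 131066135 to 131189779 and from 131190307 to 131299409 lay 527 bp apart. They are counted separately because regions were merged only where peaks overlapped. In 18 of the 30 another shared region lay within 2 kb of an edge. The 30 regions together carried 1.29% of the covered length of the shared map.

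Broad regions had closer neighbours than narrow ones. Regions were parted wherever peaks did not overlap, so a near neighbour may be a piece of the same domain. With peaks merged within 1000 bp, the regions of at least 50 kb rose from 150 to 183. Gaps by class of breadth are given without this merging. The median gap from a region to its nearest shared neighbour was 10327 bp for regions under 2 kb, 6891 bp for regions of 5 to 10 kb and 2300 bp for regions of at least 50 kb. The nearest neighbour itself was broader, with a median of 3851 bp beside the narrowest class and 8006 bp beside the broadest, against 4269 bp over all shared regions. The number of shared regions within 500 kb on either side changed less, from a median of 23 to 27. Of 1546 regions of at least 20 kb, 933 (60.3%) had no other such region within 100 kb. The run with the most of them, picked out like the next after its values were seen, lay on chromosome 7 from 115863098 to 116358325, with 8 regions of at least 20 kb that covered 48.7% of its 495 kb. A run on chromosome 12 from 76014847 to 76482243 held 7 such regions, which covered 63.2% of its 467 kb.

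**Figure D4:**
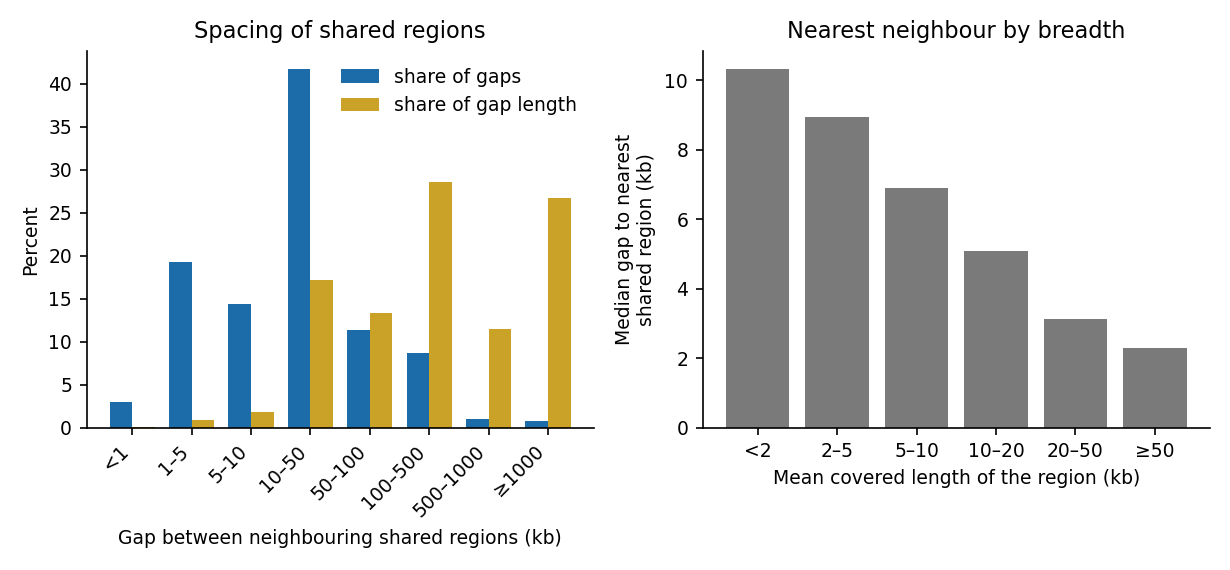
Left: share of the gaps between neighbouring shared regions, and of their summed length, by gap size (kb). Right: median gap to the nearest shared region (kb) by the mean covered length of a region (kb). Gaps of 10 to 50 kb make up 41.8% of gaps, and the nearest neighbour is at 10.3 kb for the narrowest class and at 2.30 kb for the broadest.

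Neighbouring shared regions were separated by a median of 16746 bp, with quartiles of 5872 and 43073 bp. Measured between the covered edges of each list, the median was 18605, 17895 and 17994 bp in replicates 1, 2 and 3 (18165 ± 385 bp, SD, n = 3). Gaps of 1 to 5 kb made up 19.2% of the 41507 gaps. Gaps of 1 Mb or more were 0.723% of the gaps (300 gaps) but 26.7% of the length between regions. The 5 longest lay on chromosome 1 (121331832 to 143655497, 22.3 Mb), chromosome 9 (47261056 to 65468033, 18.2 Mb), chromosome 16 (33141766 to 46606654, 13.5 Mb), chromosome 11 (48189101 to 57044760, 8.86 Mb) and chromosome 7 (56448444 to 63384986, 6.94 Mb). Each of them spans the centromere of its chromosome, where the assembly is incomplete or repetitive. The gap on chromosome 1 held 5 peaks in replicate 1, 2 in replicate 2 and 0 in replicate 3, and that on chromosome 9 held 0 in each list.

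Long gaps also lay within chromosome arms. The following were picked out after their values had been seen. A gap of 5.66 Mb on chromosome 16 (58769444 to 64424604) held 0 peaks in each of the 3 lists, as did a gap of 3.90 Mb on chromosome 14 (24954081 to 28849611). A gap of 6.78 Mb on chromosome 13 (53242330 to 60019910) held 6, 5 and 5 peaks in replicates 1, 2 and 3, which covered 10.0, 7.56 and 2.97 kb. Whether reads can be placed in these gaps, and how many copies of them the cell line carries, was not tested.

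In windows of 1 Mb the map was uneven. Of 2811 windows, 364 (12.9%) held no start of a shared region, and the median window held 14. Windows within the long gaps at centromeres are included. The fullest 281 windows carried 29.6% of the covered length. The fullest window, again picked out after its value was seen, was the one on chromosome 12 from 76000001 to 77000000, with 51.4%, 55.0% and 46.6% of its length covered in replicates 1, 2 and 3 (51.0% ± 4.22, SD, n = 3). The next was on chromosome 6 from 42000001 to 43000000, with 36.5%, 42.7% and 54.6%, and these ranges overlap.

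Chromosomes differed in how much of their length was covered by peaks. Chromosome 17 had the highest share, with 13.6%, 14.4% and 16.8% in replicates 1, 2 and 3 (14.9% ± 1.64, SD, n = 3). Chromosome 19 followed with 12.8%, 12.2% and 16.7% (13.9% ± 2.45, SD, n = 3). The ranges of chromosomes 17 and 19 overlapped, but chromosome 17 was higher in each list, by little in replicate 3. Chromosome 20 came next with 10.1%, 10.7% and 12.3% (11.004% ± 1.13, SD, n = 3), close to chromosome 1 with 10.9% ± 0.701 (SD, n = 3). At the other end stood chromosome 13 with 5.62%, 5.93% and 5.13% (5.56% ± 0.404, SD, n = 3) and chromosome 18 with 5.63%, 6.55% and 6.12% (6.10% ± 0.465, SD, n = 3). Their ranges overlapped, but chromosome 13 was lower in each list, by little in replicate 1. Chromosome 16 was the next, with 6.49%, 6.40% and 7.72% (6.87% ± 0.738, SD, n = 3), within the spread of chromosome 21 (6.89% ± 0.307, SD, n = 3). The spanned length includes long gaps, among others 13.5 Mb of 90.2 Mb on chromosome 16 and 5.80 Mb of 38.5 Mb on chromosome 21. Shares without such gaps were not computed, so the place of these chromosomes among the lowest holds for this span only. No list of chromosome 13 or 18 reached the lowest list of chromosome 17, 19 or 20.

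The number of regions per Mb varied more between chromosomes than their median breadth did. Shared regions per Mb ran from 10.7 on chromosome 18 to 23.4 on chromosome 17, around 14.9 over all chromosomes, while the median breadth of a chromosome stayed between 3623 bp (chromosome 22) and 4672 bp (chromosome 20). The density of shared regions went with the density of protein-coding genes, counted per chromosome in the RefSeq table of GRCh38.p14 and divided by the length the peaks span. Over the 22 chromosomes Pearson's r was 0.859 and Spearman's rho 0.747. Without chromosomes 17, 19 and 22, which lie apart, r was 0.616 and rho 0.609 over 19 chromosomes. Chromosome 19, rich in zinc finger genes, had the most genes per Mb (24.6) and only 0.943 shared regions per gene, against 3.17 on chromosome 4. Median breadth showed little relation to gene density (r = 0.0253, rho = 0.160). Points of this kind share the libraries, and base composition and mappability also differ between chromosomes. Their part was not tested. How many copies of each chromosome or region the cell line carries was not tested either, here or for the broadest regions.

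The lists did not share all of this pattern. On chromosome 19 the covered share was 1.37 times as large in replicate 3 as in replicate 2, on chromosome 22 it was 1.26 times and on chromosome 16 1.21 times. On chromosomes 4 and 13 it was 0.849 and 0.865 times. Over 22 chromosomes this ratio went with gene density (r = 0.877, rho = 0.846). The order of the chromosomes nevertheless stayed alike, with a rho of 0.949, 0.973 and 0.924 between replicates 1 and 2, 1 and 3, and 2 and 3.

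**Figure D5:**
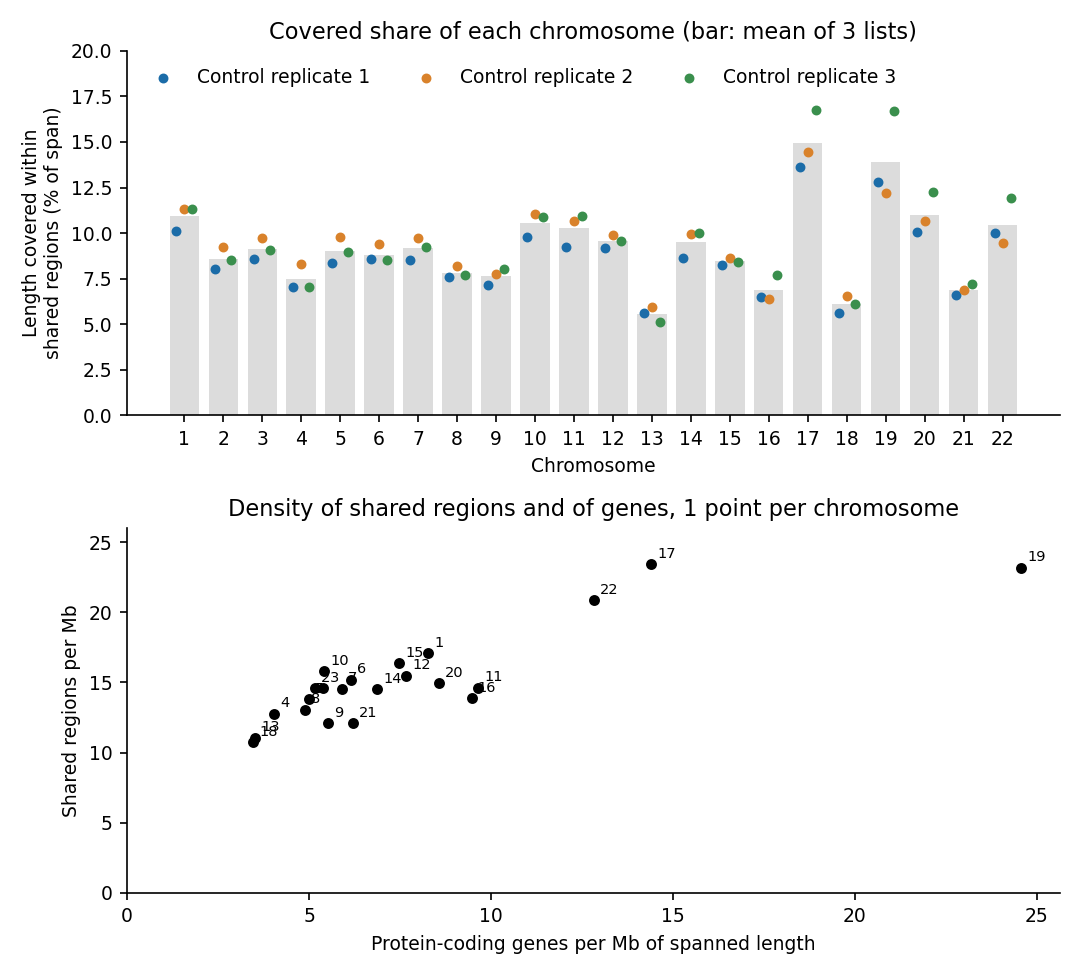
Top: percent of the spanned length of each chromosome covered by peaks within shared regions, with bars for the mean and points for the 3 Control lists. Bottom: shared regions per Mb against protein-coding genes per Mb, 1 point per chromosome. Chromosomes 17 and 19 are the highest in both panels, and replicate 3 (green) is the highest point on chromosomes 16, 17, 19, 20 and 22, among others.

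Regions of at least 50 kb lay on 20 of the 22 chromosomes. Chromosome 1 held 19 of the 150 (12.7%, against 10.3% of all shared regions), chromosome 5 held 14 (9.33% against 6.02%) and chromosome 2 held 13 (8.67% against 8.53%), while chromosomes 13 and 16 held 0 of their 1062 and 1252 shared regions. Against 0.361% over all chromosomes, such regions were 0.625% of the shared regions of chromosome 14, 0.560% of chromosome 5 and 0.533% of chromosome 20. On gene-dense chromosomes 19 and 22 they were 0.146% and 0.136%, which are 2 regions and 1 region. Across the 22 chromosomes this percentage had a Pearson's r of −0.317 with gene density. These are small counts, no test was run on them, and no difference from the distribution of all shared regions is read from them.

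The shared regions were also looked up in libraries that had no part in their choice. A region counted as held when peaks of a list covered at least 1 bp of it, so a longer region is held more easily. No such share over all merged Control regions is given beside these values, so they are not read as particular to shared regions. Each of the 6 lists from cells with an shRNA against CDK19 or CDK8 held between 94.9% and 96.2% of the 41529 shared regions, and 36149 (87.0%) were held by all 6. Of regions of at least 10 kb, 99.7% were held by all 6, and of regions under 2 kb 58.3%. All 150 regions of at least 50 kb had a peak in each of these 6 lists, and between 105 and 135 of them were covered over 50 kb or more there. Over the 30 broadest regions the length covered in a single one of these lists ran from 59.3% to 139% of the Control mean. Only bases inside the merged Control span were counted, so no list could exceed that span, and the upper values are capped by it. In the broadest region, on chromosome 8, these lists covered 214 to 231 kb, against 204 to 234 kb in the Control lists. In the region on chromosome 6 they covered 77.5 to 112 kb against 108 to 119 kb, and in that on chromosome 2 100.5 to 135 kb against 113 to 143 kb. In the region on chromosome 5 with the longest unbroken stretch they covered 102.7 to 105.3 kb against 102.6 to 104.6 kb. The regions were chosen on the Control lists, so these values are a description, and no difference between the groups was tested.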

How the data were processed

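The authors deposited 1 list of broad peaks per library, and lists were not pooled. Per the submitters' processing notes, MACS2 and deepTools were used with hg19; versions, settings, control library and aligner are not given in the sources used here. Each deposited peak carries a fold enrichment (a linear ratio) and the −log10 of its p-value and q-value; the deposited score (−log10 q times 10, cut to a whole number) was left aside. These authors' values rank or filter peaks inside 1 list and are not compared as levels. Library depth and enrichment can change how many peaks are called and how long they run, and depth is unknown.

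Peaks on chromosomes 1 to 22 were merged at 1 bp of overlap with Python 3.11.15 (numpy 2.4.6, scipy 1.17.1), and covered length, gaps and windows of 1 Mb were computed; the steps were tested on simulated data. The spanned length runs from the first to the last Control peak of a chromosome. With a single group, no test was run, and the mean and SD over 3 lists are given. Regions were named by rule: the 30 broadest by mean covered length (12 in full), the 5 longest gaps, and the 3 chromosomes with the highest and the lowest covered share. Members and rules were chosen with earlier results of these data known. The planned share of gene promoters in shared regions was not analysed here, since no hg19 annotation was used. The 3 Input libraries were not analysed here.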

Additional observations from a re-analysis of the deposited data

Results flagged for a closer look

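These results lie on sequences outside chromosomes 1 to 22, which the report did not use, and no explanation of them was tested. Chromosome X had 1803, 2164 and 2128 peaks in Control replicates 1, 2 and 3, and 1217 of its 2737 merged regions were held by all 3 lists. Its covered share was 3.996%, 4.20% and 4.09% (4.09% ± 0.102, SD, n = 3), and none (0) of the 22 other chromosomes had a lower mean. It had 7.84 shared regions per Mb, against 10.7 on the sparsest of the other chromosomes. Their median breadth of 3609 bp lay just below the lowest of the others, 3623 bp on chromosome 22, and 3 of them were at least 50 kb broad. Chromosome Y had 27 regions held by all 3 Control lists. The alternate haplotype sequences had 466, and the unplaced or unlocalised sequences had 38. Reads that fit both these sequences and a main chromosome were not tested.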

How the results depend on the processing

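No paired analysis was possible because all results describe 1 group and come from no test. Over 8 main results, 39 alternative values stayed within the limit set for them and 41 moved. The limit was the SD between lists, or 1.5 times for counts. For the median gap it was the SD of the gap between the covered edges of each list (385 bp). The gap judged by it lies between merged regions, which is another measure. For the share of regions it was the SD of the share of peaks in shared regions (10.1 percentage points). For the order of chromosomes it was the lowest rho between any pair of lists (0.924). For the 12 regions given in full, 75 stayed and 69 moved. The promoter alternatives were not run, the share of regions has no value for stretches covered by all 3 lists, and no order was computed with chromosome X. The order of chromosomes held with rho between 0.937 and 1.0, except at a −log10 q of at least 5 (0.836). Depth is unknown and may limit narrow regions most.

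With a −log10 q of at least 5 there were 12976 shared regions (49.1% of merged regions, 129 Mb, median breadth 7532 bp, median gap 62226 bp), 90 of at least 50 kb, and a median of 104496 bp over the 12 named regions, against 121926 bp as reported. With the 20000 strongest peaks of each list these were 14864, 63.2%, 144 Mb, 7361 bp, 53644 bp, 96 and 105291 bp. Fewer peaks enter both settings. With 50% of a region covered in each list there were 26544 shared regions (24.9%, 197 Mb, 5102 bp, gap 28507 bp). Stretches covered by all 3 lists numbered 51847, covered 184 Mb, had a median of 2521 bp and a gap of 13252 bp, and 14 reached 50 kb; the median over the named regions was then 49634 bp, the same as for their longest common stretch, and 140782 bp for the merged span. With peaks of at least 500 bp the median breadth was 4380 bp and the gap 17850 bp, and with peaks merged within 1000 bp the gap was 17224 bp.

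Leaving out 1 Control list gave 45020 to 50452 regions held by both others (48.7% to 54.3% of regions), 251 to 278 Mb, a median breadth of 3523 to 3740 bp, a gap of 11603 to 15524 bp and 66 to 153 regions of at least 50 kb. The median over the named regions was 91420 to 120006 bp. Replicate 3 moved the number of broad regions most (66 without it). It moved 5 of the 12 named regions by over 1.5 times, replicate 2 moved 3 and replicate 1 moved 1.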
